A study of Mus musculus with 6 samples.

Results

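The 10 genes described here code for enzymes that make, use or respond together with glutathione: the glutathione transferases Gstk1, Gsta4, Gstm1, Gstm2, Gstt1 and Mgst1, both subunits of glutamate-cysteine ligase (Gclc and Gclm), the quinone reductase Nqo1 and the haem oxygenase Hmox1. They were taken by gene symbol, current or synonym, from the probe sets to which the platform annotation gives 1 gene, and 110 of 318760 such probe sets belonged to them. All 10 were among the 16871 genes with a gene value. The genes were selected on values of these same arrays, namely the difference in log2 level between the cell lines, so that difference is given for the 10 genes as a description, with no p-value.

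RNA of OP9, a stromal cell line derived from mouse bone marrow on which lymphoid cells are often grown, was read on Affymetrix Mouse Exon 1.0 ST arrays. One stably transduced line carried a lentiviral pLKO.1-puro hairpin against Smoothened (Smo shRNA, 3 arrays) and the other a scrambled hairpin from the same vector (control shRNA, 3 arrays). Both lines had therefore been transduced, the labels name no further treatment, and the number of hairpins against Smo is not stated. Each line has 3 arrays, labelled as replicates. Whether these are separate cultures or separate transductions is not stated. A p-value here is taken to reflect no more than the spread of RNA samples within a line. A difference that the lines had for another reason cannot be told apart from that of the hairpin.

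Glutathione is the main small thiol of the cell. Glutamate-cysteine ligase makes its precursor in the limiting step, glutathione transferases join it to reactive compounds, and glutathione reductase returns its oxidized form to use. Many of these genes are raised by the transcription factor Nrf2 (gene Nfe2l2), which the adaptor Keap1 normally sends for degradation, and which binds antioxidant response elements together with a small Maf protein where the repressor Bach1 does not hold the site.

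The 10 genes did not move as 1 block. Gstk1 and Gclc were higher in Smo shRNA cells by 2.95-fold and 1.47-fold and Gclm by 1.11-fold, while Gstt1 and Hmox1 were lower by 2.62-fold and 1.41-fold. Gsta4, Mgst1, Gstm2 and Gstm1 were lower by at most 1.23-fold, and Nqo1 differed by 1.04-fold with overlapping groups. In the fit over all genes 3 of the 10 were called higher and 6 lower (adjusted p under 0.05), where 21.3% of all genes were called higher and 17.4% lower. The 3 Smo shRNA arrays all lay above the 3 control arrays for 3 of the genes and all below for 6, against 26.4% and 21.4% of all genes. Nothing is read from these counts, since this contrast served to choose the genes. The median difference of the 10 genes was -0.16 on the log2 scale and the median size of their differences 0.25, against 0.01 and 0.11 over all genes.

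**Figure D1:**
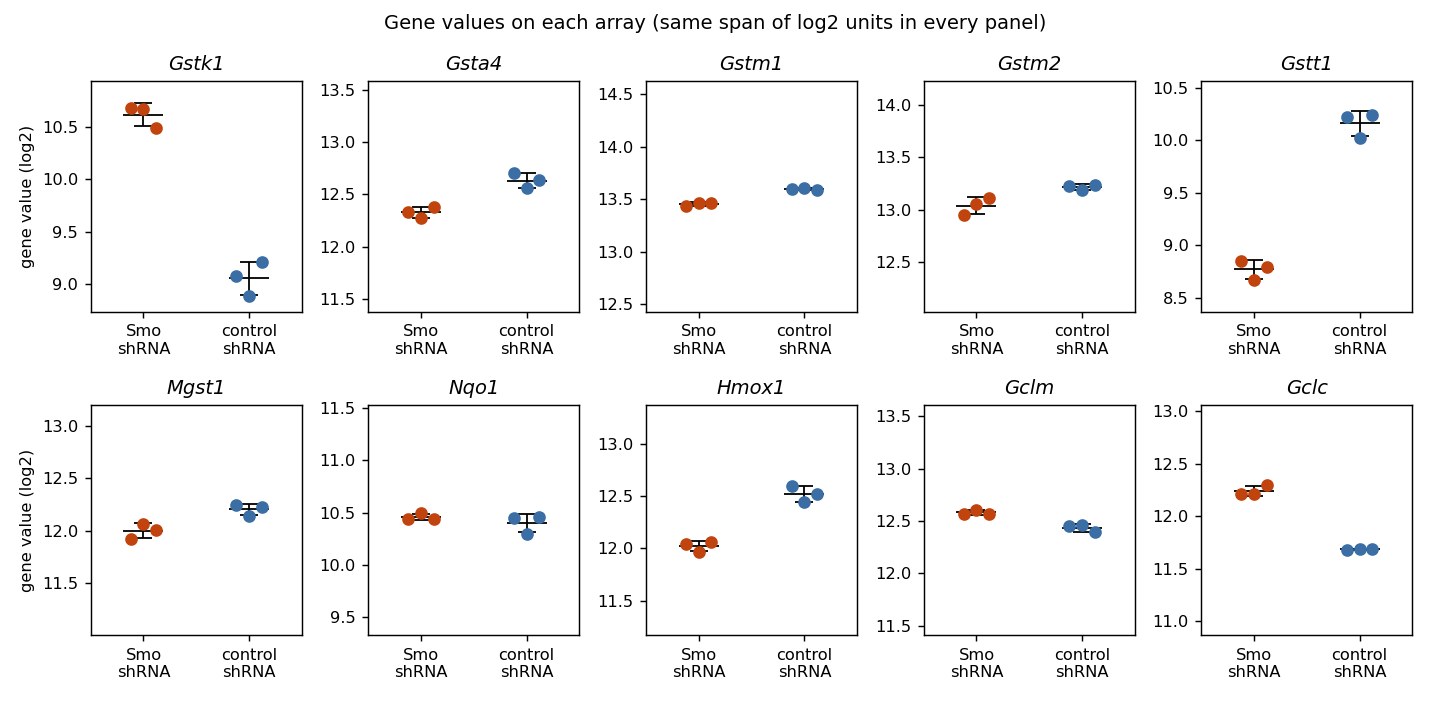
Log2 gene value on each array for the 10 genes, Smo shRNA on the left and control shRNA on the right of each panel; points are arrays, bars the mean and SD of 3 arrays, and every panel spans the same number of log2 units. Gstk1 and Gclc lie higher and Gstt1 and Hmox1 lower in Smo shRNA cells by more than the spread of the arrays, and Nqo1 overlaps.

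The targeted gene was lower in the line that carries its hairpin. Smo averaged 11.37 ± 0.06 in Smo shRNA cells and 12.25 ± 0.03 in control cells (SD, n = 3 each, log2 difference -0.88, SE 0.04, limma adjusted p = 1.13e-09). Array medians lay between 6.56 and 6.59, and within a line the gene values of any 2 arrays had a correlation of 0.996 to 0.998 across genes, which are not independent replicates. All 8 stromal markers examined (among them Pdgfra, Col1a1 and Thy1) reached the median level of the array's probe sets, and their mean per array was 11.01 to 11.05 in Smo shRNA and 11.28 to 11.32 in control cells. The mean was 6.38 to 6.48 and 6.30 to 6.43 for 7 haematopoietic markers, of which 4 reached that median, and 6.24 to 6.38 and 6.32 to 6.33 for 6 endothelial markers, of which Cdh5 and Vwf did. For 6 epithelial markers it was 7.26 to 7.57 and 7.27 to 7.48, and all 6 reached it, a level that is no detection call. The part of the lower stromal markers in the results below was not tested, and in bulk RNA fewer cells of a type and less RNA per cell cannot be told apart.

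Gstk1 showed the largest difference of the 10 and the 10th highest of all 16871 genes. It codes for the kappa class transferase, which resides in mitochondria and peroxisomes rather than in the cytosol. Its log2 gene value was 10.68, 10.67 and 10.49 in the Smo shRNA arrays, against 9.07, 8.89 and 9.21 in the control arrays. The lowest Smo shRNA array thus lay more than 1 log2 unit above the highest control array. The difference was 1.56 (SE 0.08), from means of 10.62 ± 0.11 in Smo shRNA cells and 9.06 ± 0.16 in control cells (SD, n = 3 each).

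Probe sets, each reading a stretch of exon, show how even a gene's difference was. Over the 10 genes, 104 of 110 passed a filter on dim values (a mean at the median level of all probe sets or more), and of these 29 were called higher and 49 lower, where 17.5% and 12.4% of all such probe sets were called. As with the gene counts, nothing is read from this, since the same contrast chose the genes. The share of all probe sets without overlap between the lines is not given here. Counts of a gene's probe sets without overlap are therefore descriptions only. The 12 Gstk1 probe sets fell into kinds that behaved differently. Of the 9 that passed the filter on dim values, 7 were higher in Smo shRNA cells with no overlap, by 1.38 to 1.98. The other 2, probe sets 4418427 and 5091103, had differences of -0.27 and -0.12 with overlapping groups. Probe set 4418427 read 7.84, 7.72 and 7.59 in Smo shRNA arrays and 8.24, 7.70 and 8.03 in control arrays, where probe set 5487280 read 10.42, 10.49 and 10.21 in Smo shRNA arrays and 8.82, 7.93 and 8.42 in control arrays. These 2 were the dimmest of the 9, with means over the arrays of 7.85 and 6.69, against 9.38 to 10.22 for the 7. The correlation of level and difference over the 9 was 0.90. What part the low level plays was not tested. The annotation used here does not place probe sets on exons, so it was also not tested which parts of the transcript the 2 kinds cover. The 3 probe sets below the filter differed by 0.02 to 0.98.

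Gene order in the mouse RefSeq table (assembly GRCm38.p6, chromosome 6) shows how the surroundings of Gstk1 behaved. Casp2, which codes for a caspase and lies second on one side among tested genes, was also higher, at 11.35 ± 0.05 in Smo shRNA cells and 10.65 ± 0.05 in control cells (SD, n = 3 each, log2 difference 0.70, SE 0.04, limma adjusted p = 3.22e-08). The others among the 3 nearest tested genes on each side did not pass (limma adjusted p from 0.0979 to 0.857). Their differences were 0.19 for Tmem139, 0.17 for Clcn1, -0.07 for Kel, -0.15 for Trpv5 and -0.02 for Trpv6. Clcn1 was called without the variance trend (limma adjusted p = 0.0458). All of these neighbours but Casp2 were dim, with line means from 7.44 (Clcn1, control) to 7.93 (Tmem139, Smo shRNA). Whether the dim neighbours are expressed in OP9 cells was not tested. Their small differences therefore do not show that the surroundings of Gstk1 stayed unchanged. Over the 6 arrays, the centred profile of Gstk1 was nearest to those of Il13ra1, a chain of the interleukin 13 receptor, Polr3g, a subunit of RNA polymerase III, and Adcy3, an adenylyl cyclase. Their root mean square distances from it were 0.087, 0.104 and 0.105 log2 units and their differences 1.66, 1.44 and 1.62. The distance was taken on unscaled values, so it goes largely with the size of the difference between the lines. By that difference Il13ra1, Polr3g and Adcy3 ranked 8th, 14th and 9th highest of all genes, and Gstk1 10th. Shared control of these genes was not tested.

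Gstt1 moved the other way and ranked 94th from the lowest of all genes. It codes for the theta class transferase, known for its action on small halogenated hydrocarbons. Gene values were 8.85, 8.67 and 8.79 in Smo shRNA arrays, against 10.22, 10.02 and 10.25 in control arrays. No Smo shRNA array came within 1 log2 unit of a control array. The difference was -1.39 (SE 0.07), from 8.77 ± 0.09 in Smo shRNA cells and 10.16 ± 0.12 in control cells (SD, n = 3 each). Its 11 probe sets above the filter were all lower, with no overlap, by amounts between -1.83 and -0.66. The size varied with the level: the probe sets with the highest means, 4397398 and 4893036, had the smallest differences (-0.66 and -0.69), and probe set 5590790, with the lowest, had the largest. The correlation of level and difference over these 11 probe sets of 1 gene was 0.69, a description of points that share the same arrays.

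**Figure D2:**
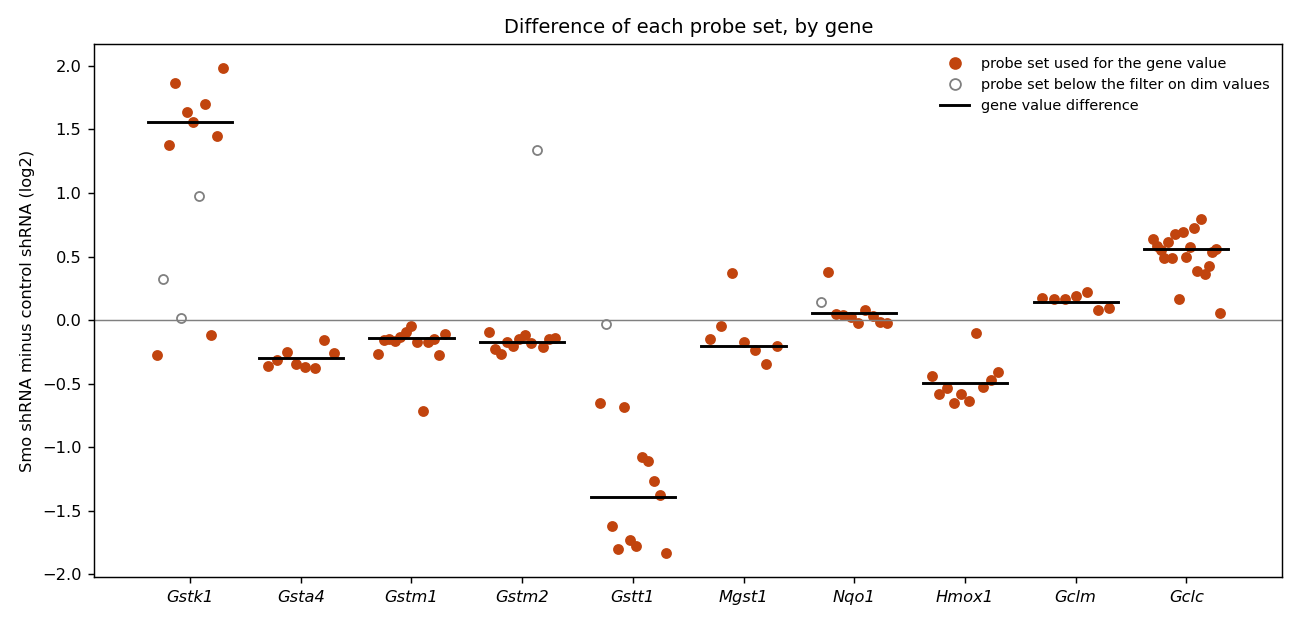
Log2 difference, Smo shRNA minus control shRNA, of each of the 110 probe sets, by gene; filled points passed the filter on dim values, open points did not, and the black line is the difference of the gene value. All 11 filled Gstt1 points lie below 0, and 7 of 9 filled Gstk1 points lie above 1.

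The other transferases among the 10 genes were a little lower in Smo shRNA cells and lay near the top of the scale. Gsta4, the alpha class enzyme known for conjugating the lipid peroxidation product 4-hydroxynonenal, read 12.33, 12.28 and 12.38 in Smo shRNA arrays, against 12.70, 12.56 and 12.64 in control arrays (difference -0.30, SE 0.04). The groups did not overlap, and all 8 Gsta4 probe sets were lower, by -0.38 to -0.15. Mgst1, the membrane-bound microsomal enzyme, read 11.92, 12.07 and 12.002 in Smo shRNA arrays and 12.24, 12.14 and 12.23 in control arrays (difference -0.21, SE 0.04). That difference shrank to -0.11 with a plain mean of probe sets, in which probe set 4690588, the only one of its 7 that was higher (0.37, groups overlapping), counts in full.

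Gstm1 and Gstm2, neighbouring mu class genes whose cytosolic products conjugate many electrophiles, differed least among the 6 transferases. With a plain mean of probe sets, instead, Mgst1 differed least (-0.11, against -0.20 for Gstm1 and -0.17 for Gstm2). Gstm1 read 13.44, 13.47 and 13.46 in Smo shRNA arrays, against 13.60, 13.60 and 13.59 in control arrays (difference -0.14, SE 0.02). Gstm2 read 12.95, 13.06 and 13.11 in Smo shRNA arrays, against 13.23, 13.19 and 13.23 in control arrays (difference -0.18, SE 0.03). In both genes every array of the Smo shRNA line was below every control array, and all 13 and all 11 probe sets above the filter were lower. The size again went with the level in part, with a correlation of level and difference of 0.74 for Gstm1 and 0.63 for Gstm2. The dimmest probe sets above the filter, 4539655 of Gstm1 (-0.27) and 4832137 of Gstm2 (-0.20, groups overlapping), did not have the largest differences. The 10 Gstm1 probe sets with a mean of 13 or more differed by -0.18 to -0.05 (median -0.15), and the 3 below 13 by -0.71, -0.28 and -0.27. For Gstm2 the medians were -0.14 over 6 probe sets of 13 or more and -0.20 over 5 below, the bound of 13 having been set after the values were seen. Probe set 5204801 of Gstm1, with the value of -0.71, read 9.79, 9.85 and 10.05 in Smo shRNA arrays and 10.68, 10.50 and 10.66 in control arrays.

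Signal shared between paralogs touches these genes. No probe set with several symbols included any of the 10 genes, but a probe set with 1 symbol can still bind a relative's RNA, and probe sequences were not used here. The close relatives moved in the same direction where they passed the test. Of the mu class, Gstm7 was 1.74-fold lower (9.56 ± 0.08 in Smo shRNA and 10.36 ± 0.16 in control cells, SD, n = 3 each, log2 difference -0.80, SE 0.07, limma adjusted p = 1.33e-06), Gstm5 1.41-fold (limma adjusted p = 5.13e-06) and Gstm4 1.35-fold (6.96e-05). Gstm3 (-0.12) and Gstm6 (-0.17) did not pass, though Gstm6 was called without Smo shRNA replicate 1 (limma adjusted p = 0.0351). A probe set annotated to both, left out of their gene values, was lower without overlap (-0.42) and was not tested. Gstt3, a relative of Gstt1, was 1.38-fold lower (limma adjusted p = 7.14e-06), while Gstt2 (-0.00) and Gstt4 (-0.02) did not pass. Gstm3, Gstm6, Gstt2 and Gstt4 were dim, with line means from 7.31 (Gstt2) to 7.65 (Gstm6, control). Whether they are expressed in OP9 cells was not tested, so their small differences do not show that they stayed unchanged. Gsta3, of the alpha class like Gsta4, was 2.24-fold lower, at 8.26 ± 0.11 in Smo shRNA and 9.42 ± 0.06 in control cells (SD, n = 3 each, log2 difference -1.17, SE 0.07, limma adjusted p = 2.11e-08). How much of any of these differences one paralog lends another was not tested.

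**Figure D3:**
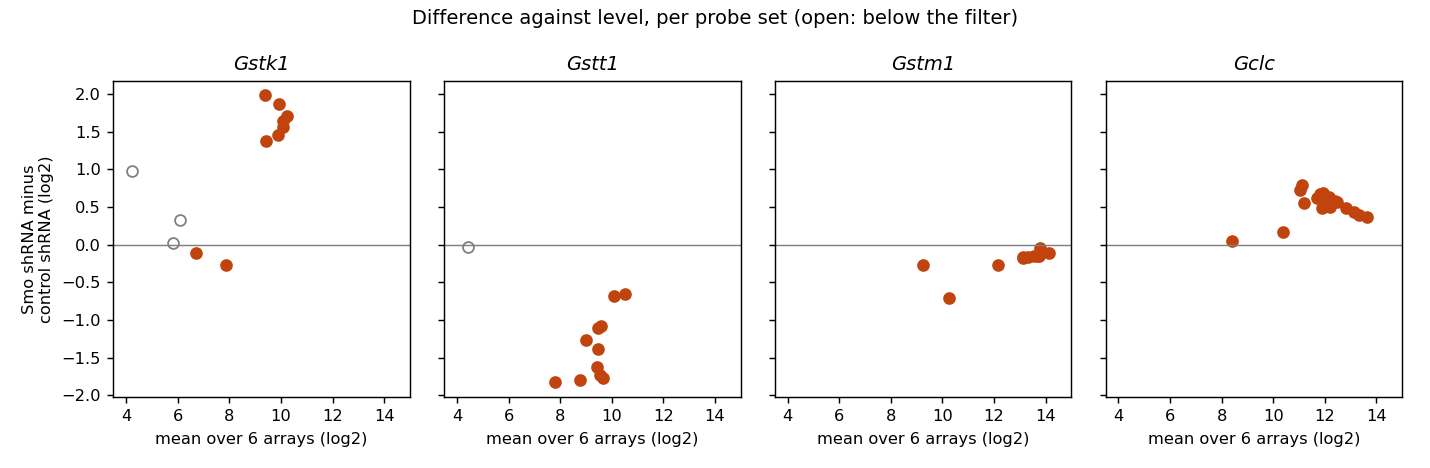
Log2 difference, Smo shRNA minus control shRNA, against the mean over 6 arrays for each probe set of Gstk1, Gstt1, Gstm1 and Gclc; open points lie below the filter on dim values. The 10 Gstm1 probe sets at 13 or more differ by -0.18 to -0.05, while the probe set with -0.71 lies lower on the level axis.

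Over the whole of the wider transferase list the changes went both ways. This list and the further lists below were chosen with earlier results of these data known. Nothing is therefore read from their counts, and the p-values of their genes do not allow for that choice. Of 20 tested transferases and membrane relatives outside the 10 genes, 5 rose (25%, against 21.3% of all genes) and 7 fell (35%, against 17.4%), while 8 did not pass, and the median difference was -0.09 against 0.01 over all genes. Gstcd, which carries a transferase C-terminal domain, rose 1.57-fold (9.62 ± 0.04 in Smo shRNA and 8.96 ± 0.06 in control cells, SD, n = 3 each, limma adjusted p = 1.01e-06). Gsto1, the omega class enzyme, rose by 0.28 on the log2 scale (SE 0.03, limma adjusted p = 2.7e-06). The list's other risers were Alox5ap (0.57), Gstz1 (0.43) and Hpgds (0.43), the first of which codes for the protein that presents arachidonic acid to 5-lipoxygenase. Hpgds was dim, at 6.92 in Smo shRNA and 6.49 in control cells, and its control mean lay below the level of the filter on dim values. With no filter, and with the filter at the 75th percentile of all probe sets, 4 genes of the list were called higher. Which gene lost its call there is not given here. Mgst2 (-0.36) and Ptges (-0.17) fell, as did Gstm7, Gstm5, Gstm4, Gstt3 and Gsta3 above. Gsto2 (-0.14) was among those that did not pass. The pi class genes Gstp1 and Gstp2 share 6 probe sets, of which the 4 brightest averaged 12.76 to 13.72 in Smo shRNA and 12.73 to 13.69 in control cells, with differences of -0.01 to 0.10 and overlapping groups.

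Both subunits of the enzyme that starts glutathione synthesis were higher in Smo shRNA cells. Gclc, the catalytic subunit of glutamate-cysteine ligase, read 12.22, 12.21 and 12.30 in Smo shRNA arrays, against 11.68, 11.69 and 11.69 in control arrays. The lines were far apart compared with the spread within them, with a difference of 0.56 (SE 0.03). All 19 Gclc probe sets were higher and 17 had no overlap, by 0.36 to 0.79 in those 17. Probe sets 5564701 and 4855207 were the exceptions, at 0.05 and 0.16, and had the lowest means of the 19 (8.40 and 10.39). Gclm, the modifier subunit, read 12.57, 12.61 and 12.57 in Smo shRNA arrays and 12.45, 12.46 and 12.40 in control arrays. Its 7 probe sets were all higher without overlap, by 0.08 to 0.22 (gene difference 0.15, SE 0.03).

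Slc7a11, the cystine and glutamate exchanger that supplies cysteine for this step, rose 2.63-fold, at 10.15 ± 0.05 in Smo shRNA and 8.75 ± 0.05 in control cells (SD, n = 3 each, log2 difference 1.40, SE 0.06, limma adjusted p = 6.67e-10). Gsr, glutathione reductase, rose 1.42-fold, at 10.86 ± 0.01 in Smo shRNA and 10.35 ± 0.02 in control cells (SD, n = 3 each, limma adjusted p = 6.21e-07). Abcc4, an exporter of organic anions and glutathione conjugates, rose 1.57-fold (limma adjusted p = 9.1e-09), and Glrx5, a mitochondrial glutaredoxin of iron-sulphur cluster assembly, rose 1.38-fold (1.72e-06). Gpx8, a peroxidase of the endoplasmic reticulum, fell by 0.24 on the log2 scale (SE 0.02, limma adjusted p = 1.14e-06). Of 26 tested genes of the glutathione cycle outside the 10, 7 rose (26.9%) and 5 fell (19.2%), near the 21.3% and 17.4% of all genes, while 14 did not pass, and the median difference was 0.01. Glutathione synthetase, Gss (0.10), the partner of Slc7a11, Slc3a2 (0.03), and the peroxidases Gpx1 (0.00) and Gpx4 (-0.04) were among those that did not pass, as were Ggct (-0.30) and Abcc5 (-0.11). Ggct was called without control shRNA replicate 1 (-0.52, limma adjusted p = 0.00885), and Abcc5 with a plain mean of probe sets (-0.23, 0.00752). Ggct was dim and its control arrays were scattered, at 6.81 ± 0.02 in Smo shRNA and 7.10 ± 0.27 in control cells (SD).

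Nqo1 and Hmox1, both long used as readouts of Nrf2, differed from each other. Nqo1, which reduces quinones without releasing radicals, read 10.44, 10.49 and 10.44 in Smo shRNA arrays, against 10.44, 10.30 and 10.46 in control arrays. These groups overlapped, and the difference of 0.06 (SE 0.05) was smaller than the control SD of 0.09. Of its 9 probe sets above the filter, 6 were higher and 3 lower, between -0.02 and 0.38. Hmox1, which opens the haem ring and frees iron, read 12.04, 11.97 and 12.06 in Smo shRNA arrays, against 12.59, 12.44 and 12.52 in control arrays. The groups stood apart by more than their spread (difference -0.49, SE 0.04). All 10 Hmox1 probe sets were lower, 9 of them without overlap, by -0.65 to -0.40 in those 9 and -0.10 in the remaining one, probe set 5130454.

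Other genes that Nrf2 is known to raise went both ways, with many that did not pass. As with the other lists, nothing is read from the counts, since earlier results of these data were known when the list was chosen. Of 29 tested, 10 rose (34.5%, against 21.3% of all genes), 4 fell (13.8%, against 17.4%) and 15 did not pass. The median difference was 0.05. Over the lists, 8 tested genes (Gsta3, Gstm3, Gsr, Slc7a11, Abcc1, Abcc4, Fth1 and Blvrb) stand on more than one and are counted on each. Srxn1, sulfiredoxin, which repairs over-oxidized peroxiredoxins, rose 1.34-fold (12.36 ± 0.03 in Smo shRNA and 11.95 ± 0.02 in control cells, SD, n = 3 each, log2 difference 0.42, SE 0.03, limma adjusted p = 1.87e-07). Pir, Prdx6, Abcc1, Txnrd1, Aldh3a2 and Txn1 rose by 0.35, 0.32, 0.28, 0.28, 0.15 and 0.09. Akr1b10, Ephx1 and Tkt fell by 0.34, 0.20 and 0.16. Me1 (0.03), Prdx1 (-0.02), Sqstm1 (0.04), Fth1 (-0.02), Ptgr1 (0.17) and Cbr1 (0.13) were among the 15, Ptgr1 being called without control shRNA replicate 3 (limma adjusted p = 0.0291).

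The Nrf2 gene itself did not pass the test, and Maff showed the largest difference among the 16 genes of its regulators and relatives. Nfe2l2 averaged 12.95 ± 0.04 in Smo shRNA and 12.94 ± 0.01 in control cells (SD, n = 3 each, log2 difference 0.02, limma adjusted p = 0.687). An array of this kind reads RNA, and Nrf2 is known to be controlled through the stability of its protein. Of these 16 genes, 4 rose (25%) and 2 fell (12.5%), near the 21.3% and 17.4% of all genes called. Maff, a small Maf partner, rose 1.47-fold (9.38 ± 0.07 in Smo shRNA and 8.82 ± 0.10 in control cells, SD, n = 3 each, limma adjusted p = 1.37e-05), and Ahr, the aryl hydrocarbon receptor, which also drives Nqo1, rose 1.22-fold (3.36e-05). The other calls were small. Keap1 fell by 0.21 (SE 0.07, limma adjusted p = 0.0227) and Bach1 by 0.14 (SE 0.05, limma adjusted p = 0.04998), while Cul3, the ubiquitin ligase scaffold that works with Keap1, and Nfe2l1, a relative of Nrf2, each rose by 0.12. Keap1, Bach1 and Nfe2l1 each lost the call in 5 of the 6 fits without 1 array, the fit without control shRNA replicate 2 being the one that kept Keap1 and Bach1 and the fit without control shRNA replicate 3 the one that kept Nfe2l1. Cul3 lost it without control shRNA replicate 2 (limma adjusted p = 0.081). Without the variance trend Cul3 (limma adjusted p = 0.07), Nfe2l1 (0.0723) and Bach1 (0.0714) were not called either, and Bach1 also missed with a filter at the 75th percentile (0.0523) and the plain mean (0.144). Mafg (0.06), Mafk (-0.04), Rbx1 (-0.09) and Nfe2 (-0.09) did not pass, though Rbx1 was called without control shRNA replicate 2 (limma adjusted p = 0.0344) and with quantile normalization (0.0477).

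**Figure D4:**
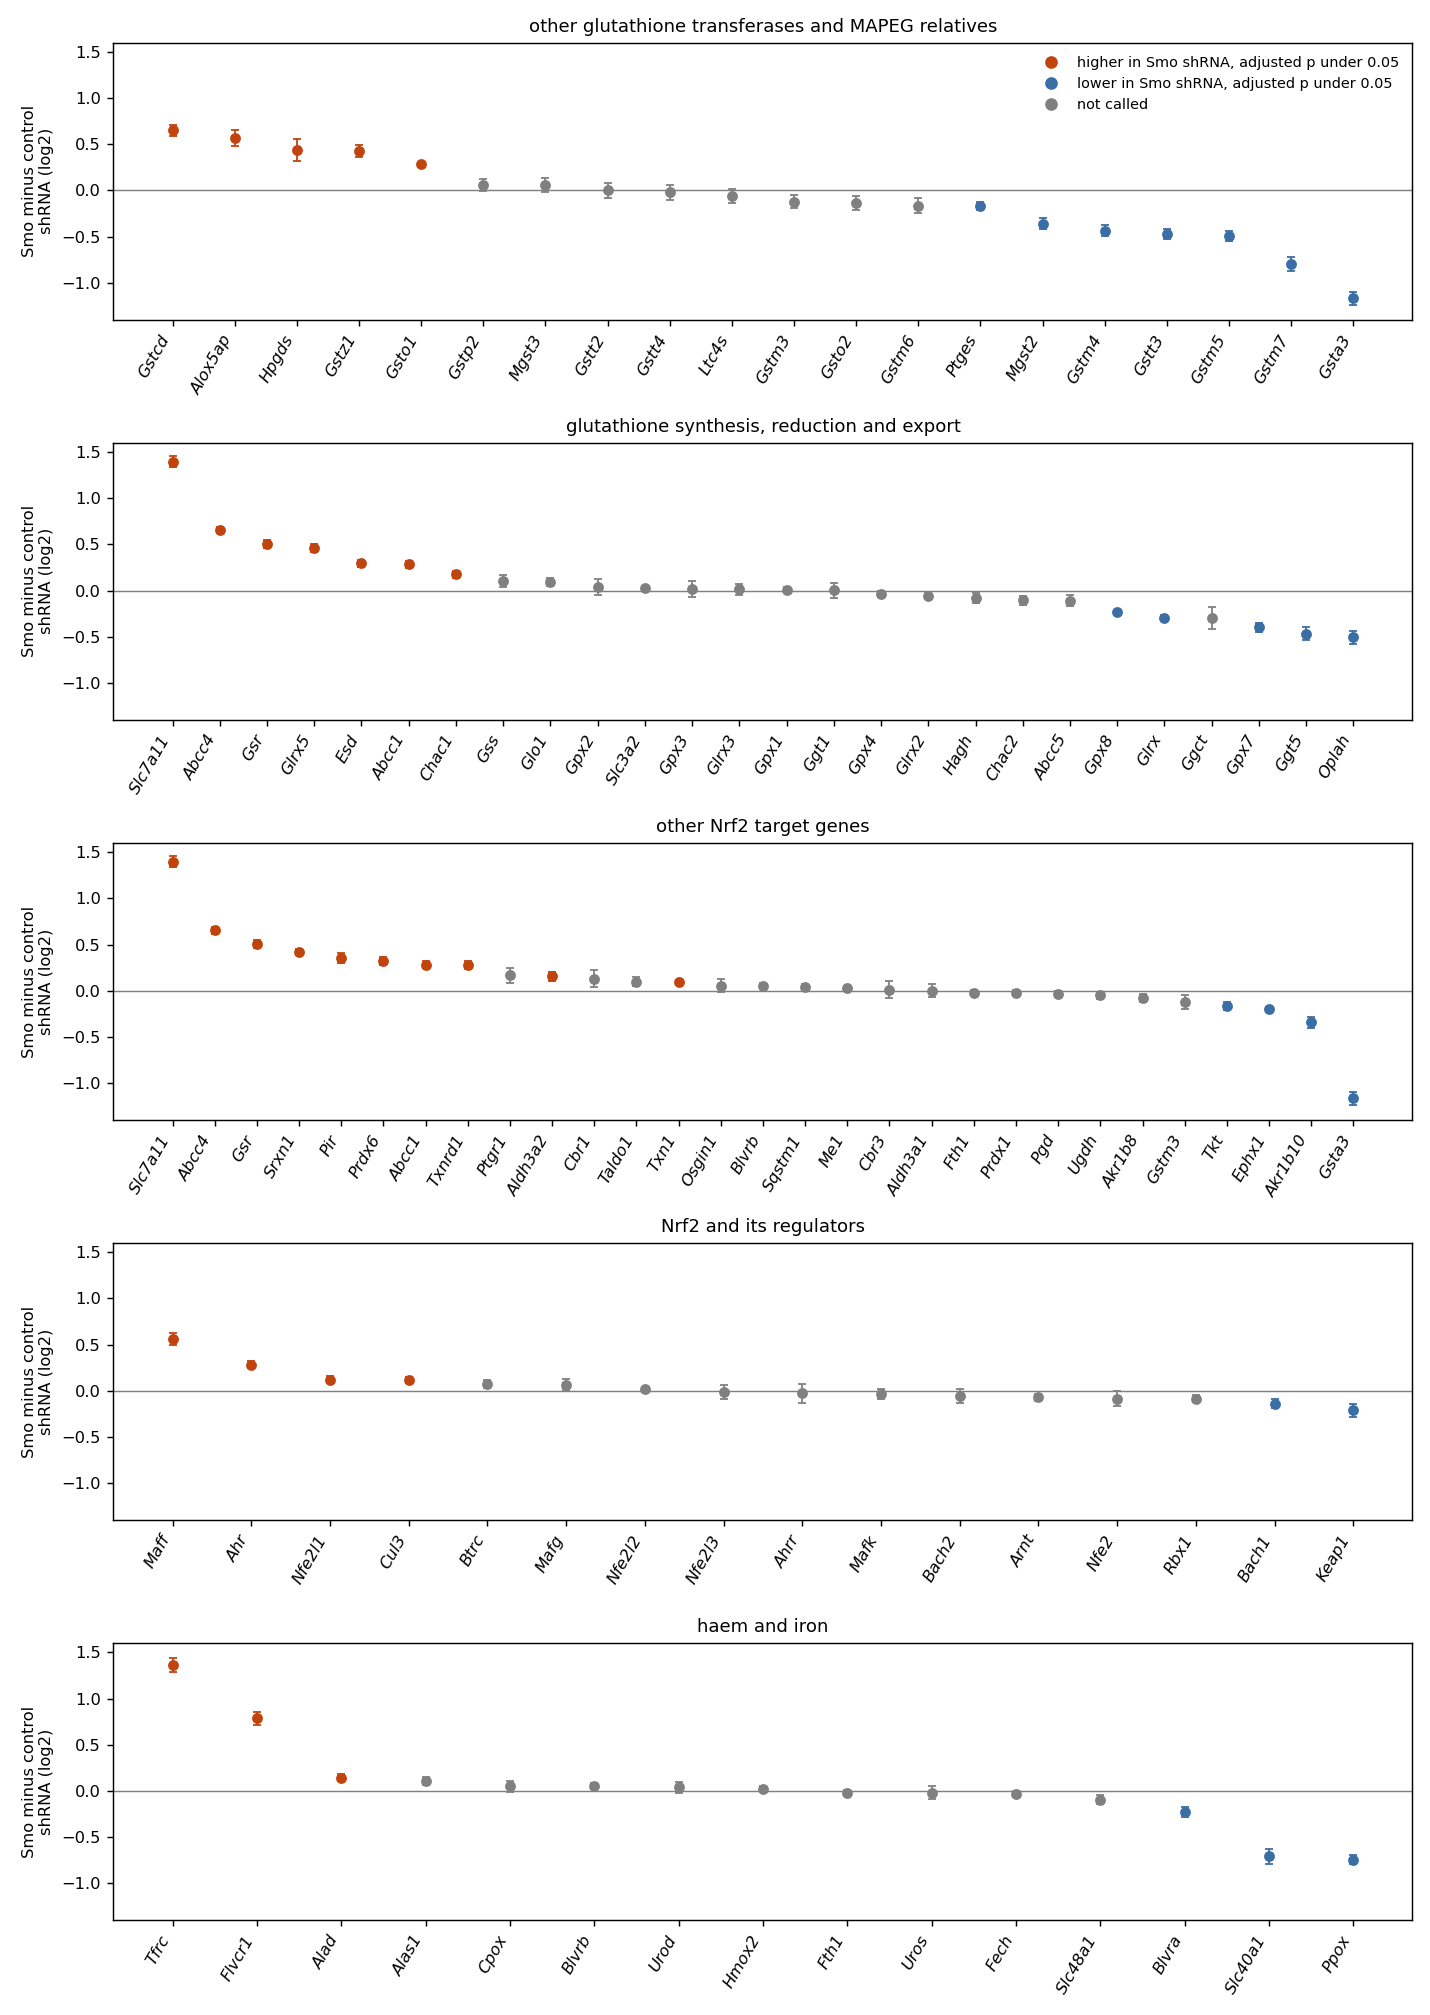
Log2 difference, Smo shRNA minus control shRNA, with its moderated standard error (n = 3 arrays each) for the tested genes of 5 lists outside the 10 genes; colour gives the call at an adjusted p under 0.05 over all genes. Slc7a11 (1.40), Tfrc (1.36) and Gsta3 (-1.17) lie farthest from 0.

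Genes of haem and iron handling outside the 10 went both ways, and as with the other lists nothing is read from their counts. Of 15 tested, 3 rose (20%, against 21.3% of all genes), 3 fell (20%, against 17.4%) and 9 did not pass. Tfrc, the transferrin receptor for iron uptake, rose 2.57-fold (10.77 ± 0.08 in Smo shRNA and 9.41 ± 0.17 in control cells, SD, n = 3 each, log2 difference 1.36, SE 0.08, limma adjusted p = 9.46e-09), and Flvcr1, a haem exporter, rose 1.73-fold (limma adjusted p = 9.98e-07). Slc40a1, the iron exporter ferroportin, fell 1.64-fold (1.04e-05). Ppox, an enzyme late in haem synthesis, fell 1.68-fold (limma adjusted p = 5.75e-08), and Blvra, which reduces the biliverdin that haem oxygenase releases, fell by 0.23 on the log2 scale (limma adjusted p = 0.00551). The Blvra call was lost without Smo shRNA replicate 2 and with a plain mean of probe sets. Hmox2, the constitutive haem oxygenase, had a difference of 0.02, Alas1 of 0.11 and Slc48a1 of -0.09, none of which passed. Slc48a1 was called with a plain mean of probe sets (-0.25, limma adjusted p = 0.00278), and Alas1 with the filter set at the 75th percentile of all probe sets (0.0187) and without control shRNA replicate 3 (0.0464).

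The core of the antioxidant response element shows which of these genes carry the motif close to their start. The letters TGACNNNGC were searched on both strands in the 250 bases before each start in the RefSeq promoter table (GRCm38.p6). They were found in 11.5% of 27025 genes, in 2 of the 7 among the 10 genes that the table holds (Gclm and Mgst1), in 7 of 30 other Nrf2 targets, in 5 of 13 regulators, in 3 of 21 other transferases, in 3 of 23 genes of the glutathione cycle and in 2 of 13 of haem and iron handling. Gstk1, Gstm1, Gstm2, Gstt1 and Nqo1 had windows without these letters, which says nothing of sites farther away. The stretches below are those of both matching members, which were themselves chosen on this contrast, and of 6 other genes that passed the test. These 6 were picked to cover both directions, so the split between higher and lower among the stretches is no result. Abcc4, Flvcr1 and Blvra also passed the test and hold the letters. Nfe2l2, Arnt, Prdx1, Ugdh, Mafk, Mafg, Ggct and Ggt1 hold them and did not pass, and G6pdx holds them and was not tested. Each stretch is written 5′ to 3′ on the strand of its gene, with the 9 matching letters in capitals.
Gclm, higher, chr3:122245408-122245446, plus strand: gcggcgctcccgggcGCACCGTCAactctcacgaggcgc
Txnrd1, higher, chr10:82859099-82859137, plus strand: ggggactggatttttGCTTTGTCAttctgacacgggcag
Pir, higher, chrX:164269202-164269240, plus strand: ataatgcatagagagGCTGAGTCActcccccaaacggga
Maff, higher, chr15:79346494-79346532, plus strand: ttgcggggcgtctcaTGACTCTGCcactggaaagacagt
Mgst1, lower, chr6:138140456-138140494, plus strand: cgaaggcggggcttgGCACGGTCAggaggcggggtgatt
Gsta3, lower, chr1:21240449-21240487, plus strand: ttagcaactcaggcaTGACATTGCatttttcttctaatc
Gstm5, lower, chr3:107895797-107895835, plus strand: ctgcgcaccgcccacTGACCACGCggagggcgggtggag
Gstm7, lower, chr3:107931720-107931758, minus strand: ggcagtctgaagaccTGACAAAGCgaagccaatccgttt

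In Gclm, Txnrd1, Pir and Mgst1 the capitals read the motif on the opposite strand (GCNNNGTCA). The first capital letter lies 134 bases before the start in Gclm, 56 in Mgst1, 92 in Txnrd1, 214 in Pir, 112 in Maff, 121 in Gsta3, 42 in Gstm5 and 129 in Gstm7. Of the genes printed, Txnrd1, Pir and Maff rose by 0.28, 0.35 and 0.56, while Gsta3, Gstm5 and Gstm7 fell by 1.17, 0.49 and 0.80. A match is a description of the letters and no evidence that a factor sits there in OP9 cells.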

How the data were processed

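RNA of 3 Smo shRNA and 3 control shRNA samples was measured on 6 exon arrays. The deposited table holds log2 values per exon probe set made by the authors. Their range (0 to 15.14) is what identifies the log2 scale. How probes were summarised, corrected for background and normalized is not given here. Array medians were nearly equal. In 1.65% of 1256831 rows all arrays read 0.

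Genes were named from the platform annotation, updated through the mouse RefSeq table: 318760 probe sets had 1 symbol, 6684 several (left out) and 931387 none. A probe set was kept where its average level reached 6.56, the median of all probe sets. This kept 245574 probe sets, 104 of them among the 110 of the 10 genes. Genes with 3 or more were joined by Tukey median polish (16871 genes). Lines were compared across all genes with limma 3.58.1 in R 4.3.3 (lmFit, eBayes with a variance trend, two-sided, Benjamini-Hochberg over all genes, threshold 0.05, no replicate block). Differences are Smo shRNA minus control shRNA, and SE is the moderated standard error. No detection call was used, folds of dim genes may be understated, and the number of arrays limits the precision. Outside the rows at 0 on all arrays, any pair of arrays had at most 0.0237% identical values. The fit was tested on simulated data.

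The 10 genes and the 5 further lists were chosen with earlier results of these data known. Named genes are the 10, Smo, Nfe2l2, Keap1, Bach1, up to 5 called genes per list by smallest adjusted p and up to 2 uncalled by largest difference, the 3 nearest tested genes on each side of Gstk1 and the 3 genes with the nearest centred profile. Other list genes were named after their values were seen. Genes without 3 kept probe sets of their own (Gsta1, Gsta2, Gstp1, G6pdx, Ftl1 and others) were not analysed here as gene values.

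Alternatives were no filter, a stricter filter, a mean of probe sets, at least 5 probe sets, quantile normalization, no variance trend, a replicate block and leaving out each array.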

Additional observations from a re-analysis of the deposited data

Results flagged for a closer look

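One probe set outside the gene values, annotated to both Gstz1 and Pomt2, read higher in all 3 Smo shRNA arrays (7.62, 7.89 and 7.74) than in the 3 control arrays (7.18, 7.42 and 7.57), a difference of 0.36 that was not tested. It is listed because it lies in data the comparison left out and exceeds the control level. Probe set 4881552, annotated to both Gstm6 and Gstm3, was also left out. It read 6.75, 6.93 and 7.22 in Smo shRNA arrays, against 7.55, 7.25 and 7.36 in control arrays. That difference of -0.42, without overlap, was not tested either.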

How the results depend on the processing

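The median difference of the 10 genes lay between -0.18 and -0.13 over 12 alternatives and each of the 10 genes kept its sign in all of them. The difference of Gstk1 ranged from 1.24, with a plain mean of probe sets, to 1.63, with the stricter filter, and was 1.33 with no filter. That of Gclc ranged from 0.50 to 0.56. Counts over all genes and in 4 of the lists stayed within 1.5 times their value under each alternative. The regulator list did not: 1 gene was called lower with the stricter filter, 1 with a mean of probe sets and 1 without the variance trend, which also left 2 called higher. Without 1 array, 0 to 3 regulators were called lower and 2 to 4 higher; none was called lower without any one of 5 arrays, all but control shRNA replicate 2, and 2 were called higher without control shRNA replicate 2. The cause was not tested. Leaving out 1 array gave 2669 to 2913 genes higher and 2075 to 2770 lower, and 34157 to 43127 probe sets higher and 23921 to 29912 lower. Same-numbered arrays of the lines had deviations that correlated at 0.08, 0.10 and 0.39, and not every array correlated best with its own number, so the numbers were not taken to pair the samples. With the replicate block, 3787 genes were called higher and 3137 lower, against 3586 and 2932 without it, the median difference of the 10 genes stayed at -0.16, and Ggct and Ptgr1 gained a call. Over the alternatives tried for the other named genes, 23 values lost a call and 12 gained one, and no called gene changed direction. The files used here give no background signal or saturation flag, so whether dim or very bright probe sets understate a difference was not tested.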

Other observations

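A few probe sets read higher on Smo shRNA replicate 3 than on the other arrays of its line, a pattern picked after the values were seen. Mgst1 probe set 4690588 read 7.98, 8.37 and 9.54 in Smo shRNA arrays 1 to 3, against 8.26, 8.02 and 8.49 in control arrays. Gstm2 probe set 4832137 read 10.93, 11.27 and 11.92 in Smo shRNA arrays, against 11.54, 11.52 and 11.66 in control arrays. The shared Gstp1 and Gstp2 probe set 4852466 read 6.82, 6.91 and 8.20 in Smo shRNA arrays, against 6.84, 7.15 and 6.97 in control arrays. The gene values on that array were 13.11 for Gstm2 and 12.002 for Mgst1, against 12.95 and 13.06 for Gstm2 and 11.92 and 12.07 for Mgst1 on the other Smo shRNA arrays.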
